A study of Mus musculus with 22 samples.

Results

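Astrocytes are the glial cells that clear glutamate and potassium from around synapses, share ions and metabolites through gap junctions, and line blood vessels with water channels. When tissue is injured they become reactive, and the intermediate filament proteins Gfap and Vim and the secreted protease inhibitor Serpina3n are the transcripts best known to increase. The genes described here were 10 transcripts of astrocyte identity and reactivity, chosen by name with earlier results of these data known: Gfap, Vim, Serpina3n, S100b, Aqp4, Slc1a2, Slc1a3, Aldh1l1, Gja1 and Gjb6. Through RefSeq transcripts they were matched to 15 of the 55681 probes of the array, and they were 10 of the 21119 genes that could be named. Gfap and Slc1a2 had 3 probes each, Aqp4 had 2 and the other genes had 1. All 15 probes were well above background on 22 of 22 arrays and none was saturated.

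Total RNA of the right-hemisphere hippocampus of 22 mice was read on Agilent one-colour (Cy3) mouse arrays, 1 mouse per array. TgproNGF#3 mice, which carry a furin-resistant proNGF with IRES and EGFP under the Thy1.2 promoter, a promoter used for expression in neurons, were compared with WT mice of the same strain, C57Bl/6xDBA/2. There were 4 TgproNGF#3 and 4 WT mice at 1 month (males), 4 and 4 at 3 months (males), and 3 and 3 at 12 months (females), all untreated. TgproNGF#3 is 1 founder line. Every age had a slide to itself and the sexes were not mixed within an age, which means that effects of age, of sex and of slide cannot be told apart. Levels below are the log2 intensity minus the array's 75th percentile, so a value of 0 is the 75th percentile of the spots kept on that array. Log2 FC is the mean TgproNGF#3 level minus the mean WT level. Unless an exact test is named, p-values are from limma, and adjusted p-values are Benjamini-Hochberg values over all probes tested at that age. Genes are given by the brightest of their probes unless another probe is named.

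Between 57.6% and 80.27% of the spots of an array were well above background, and the lowest share was that of TgproNGF#3 replicate 4 at 3 months. The marker lists for neurons, oligodendrocytes, microglia, endothelium, leptomeninges, and choroid plexus and ependyma were all detected, each gene on at least 1 array. Because these are bulk samples, fewer astrocytes and less RNA per astrocyte cannot be told apart in any value below.

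For orientation on the genes themselves, short promoter windows are shown for 4 members in which a search of the 300 bases around the RefSeq start site found a named motif near or upstream of it. Coordinates are those of GRCm38.p6, sequences are credited to RefSeq, each is given 5′ to 3′ on the strand of the gene, and the capitals mark the motif.
Gfap, chr11:102897184-102897213, minus strand, TTCNNNGAA (a STAT-type motif): aatgggggtgcTTCCAGGAAgtcaggggca
Slc1a3, chr15:8710885-8710914, minus strand, TTCNNNGAA: attcaggatccTTCCAAGAAatttcagtta
Gja1, chr10:56377269-56377298, plus strand, TGANTCA (an AP-1-type motif): cctccttccagtTGAGTCAgtggcttgaaa
Vim, chr2:13574267-13574296, plus strand, TATAAA: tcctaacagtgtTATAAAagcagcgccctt
Both strands were searched in the promoters of 9 members, all but Aqp4, which was not searched. TTCNNNGAA was found in 2 of the 9 (Gfap and Slc1a3) and in 8.3% of all 32851 promoters searched, TGANTCA in 1 of 9 (Gja1) and in 7.81%, and TATAAA in 2 of 9 (Vim and Slc1a3) and in 13.6%. CCAAT was found in 4 of 9 and in 37.4%, and GGGCGG in 2 of 9 and in 35.7%. TGANTCA and TTCNNNGAA read the same on both strands, and no match overlapped another among the windows shown. These matches describe letters and are not sites of binding.

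**Figure D1:**
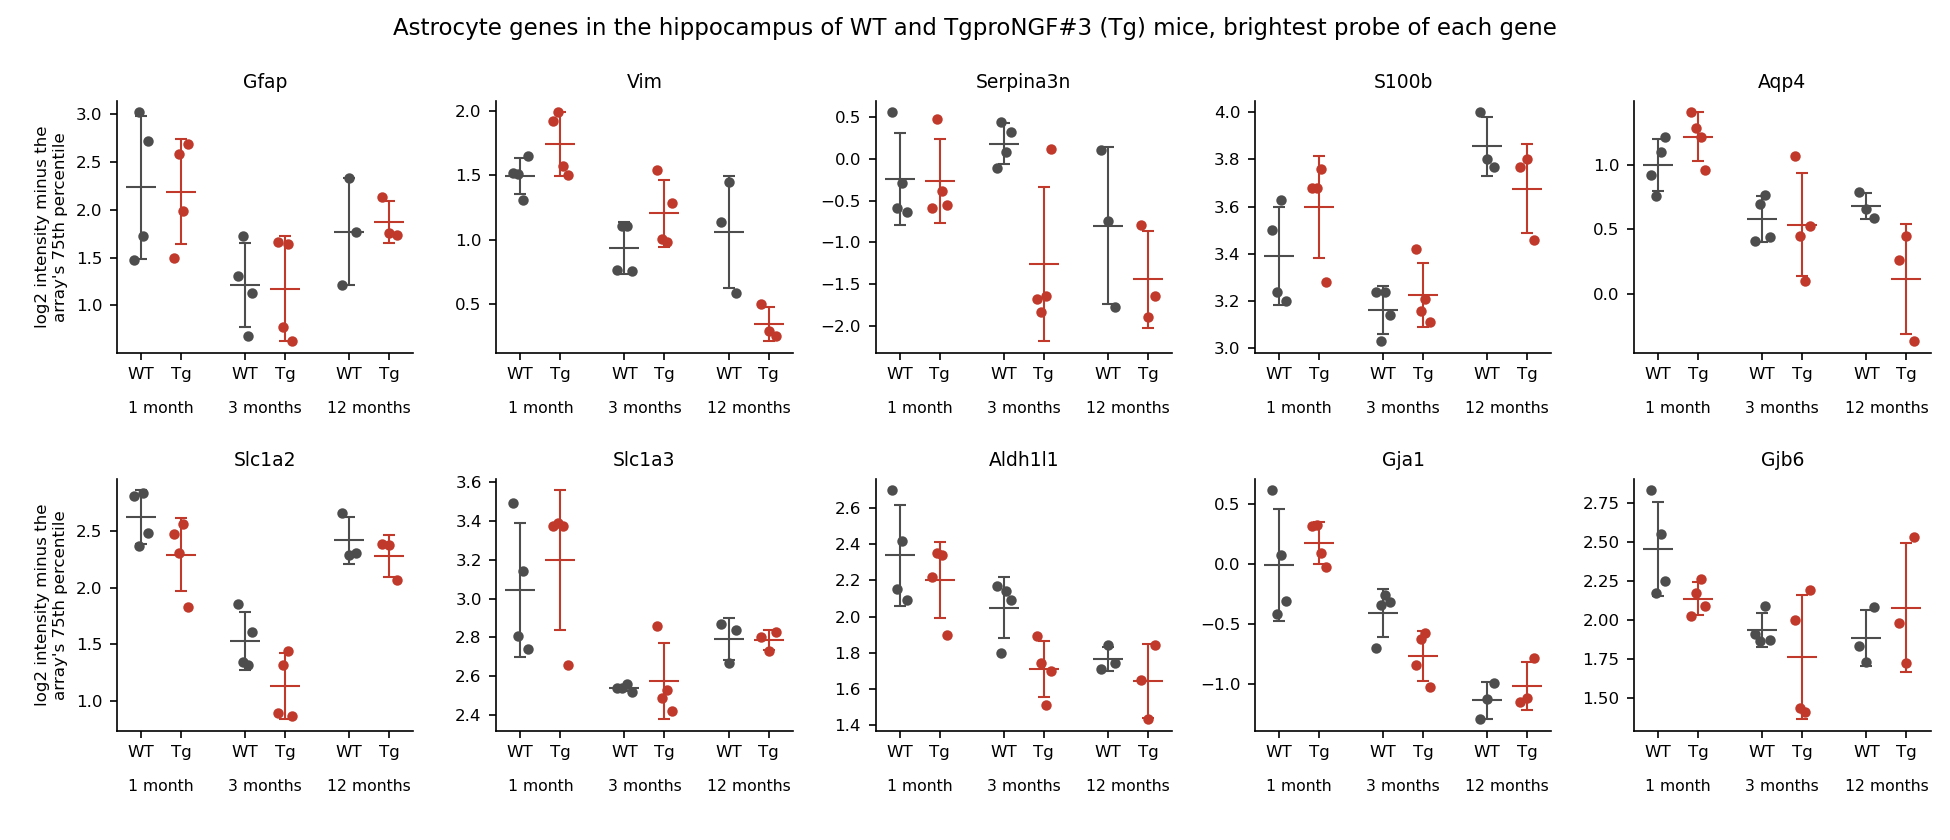
Level of the brightest probe of each of the 10 genes (log2 intensity minus the array's 75th percentile) in WT (grey) and TgproNGF#3 (Tg, red) mice at 1, 3 and 12 months. Each point is 1 mouse, the bar is the group mean and the whisker 1 SD; Serpina3n at 3 months has 3 of 4 TgproNGF#3 mice from -1.84 to -1.65 and the WT mice from -0.11 to 0.44.

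At 1 month none of the 10 astrocyte genes separated the genotypes. Of the 10 genes, 5 were higher and 5 lower in TgproNGF#3 mice, none reached an adjusted p below 0.05 (smallest 1) and none an unadjusted p below 0.05, where 0% and 3.47% of all probes tested did. None passed the threshold of the study's methods, which asks for a Log2 FC past 1 in either direction besides an unadjusted p below 0.05 (0.57% of all probes), and none had groups that did not overlap (2.16% of all probes measured on all arrays). The same counts of 0 held over all 15 probes. With 1 mouse left out, the 1405 probes behind the 3.47% ran from 746 (without WT replicate 3) to 2514 (without TgproNGF#3 replicate 4). Gfap, the filament protein by which astrocytes are usually stained, lay at 1.5, 2.58, 1.99 and 2.69 in TgproNGF#3 mice and at 1.47, 3.02, 1.73 and 2.72 in WT mice. The mice of each genotype spanned over a log2 unit and the groups covered the same range, with a Log2 FC of -0.05 (SE 0.39). Vim, the other filament gene, was at 1.92, 1.99, 1.57 and 1.5 in TgproNGF#3 mice and at 1.52, 1.51, 1.31 and 1.65 in WT mice. All 4 TgproNGF#3 mice were above the WT mean of 1.5, and the Log2 FC was 0.25 (SE 0.18). Slc1a2, the main glutamate transporter of astrocytes, had a Log2 FC of -0.33 (SE 0.21), and Gjb6, a connexin of astrocyte gap junctions, had a Log2 FC of -0.32 (SE 0.19). In both, all 4 TgproNGF#3 mice were below the WT mean but the groups overlapped.

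At 3 months the genotypes differed across much of the array, and among the 10 astrocyte genes the glutamate transporter Slc1a2 was the 1 with called probes. Its 2 probes of transcript NM_001077514 were lower in TgproNGF#3 mice, 1.79-fold for A_55_P2136847 and 3.05-fold for A_55_P2392625. By the brightest probe of each gene, 0 of 10 genes reached an adjusted p below 0.05, 2 reached an unadjusted p below 0.05 (Serpina3n and Aldh1l1, both lower) and 1 passed the threshold of the methods (Serpina3n). Over all 15 probes the counts were 2, 6 and 3, beside 8.43%, 27.2% and 6.76% of all probes tested. The genotypes were fully apart for 3 of the 15 probes, beside 19.5% of all probes measured on all arrays. The direction was also that of the array, since 2302 of the 2831 probes called over all genes were lower in TgproNGF#3 mice. With 1 mouse left out the 2831 ran from 969 to 3500. The low counts came from leaving out WT replicate 4 (969), 1 (1333) or 3 (1592) or TgproNGF#3 replicate 1 (1618).

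Probe A_55_P2136847 of Slc1a2 was at -1.82, -1.27, -1.35 and -2.07 in TgproNGF#3 mice and at -0.67, -1.01, -0.82 and -0.63 in WT mice. Every TgproNGF#3 mouse was below every WT mouse, and the Log2 FC was -0.84 (SE 0.20, adjusted p = 0.0348). Probe A_55_P2392625 was at -3.56, -2.06, -2.52 and -3.94 in TgproNGF#3 mice and at -0.99, -1.84, -1.43 and -1.39 in WT mice. The groups were again apart, with replicates 1 and 4 of TgproNGF#3 the lowest on both probes, and the Log2 FC was -1.61 (SE 0.39, adjusted p = 0.0372). The two-sided exact permutation p was 0.029 for either probe, the smallest that 4 against 4 mice can give. The brightest Slc1a2 probe, A_55_P1955412, designed to transcript NM_011393, was at 0.89, 1.32, 1.44 and 0.87 in TgproNGF#3 mice and at 1.86, 1.34, 1.32 and 1.61 in WT mice. These groups overlapped and the Log2 FC of -0.40 (SE 0.19, adjusted p = 0.211) did not pass the test. Within each array row of the slide, which held 2 mice of each genotype, the Log2 FC was -0.70 and -0.98 for A_55_P2136847 and -1.40 and -1.82 for A_55_P2392625. Both calls were lost with the array row as a block (adjusted p = 0.0593 and 0.0611), with the replicate number as a block (0.118 and 0.104) and with dim spots kept (0.0649 and 0.0589). With 1 mouse left out, the call of A_55_P2136847 was lost in 4 of 8 cases (TgproNGF#3 replicate 1 and WT replicates 1, 3 and 4) and that of A_55_P2392625 in 5 of 8 (the same and WT replicate 2), and the highest adjusted p was 0.114 and 0.102.

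**Figure D2:**
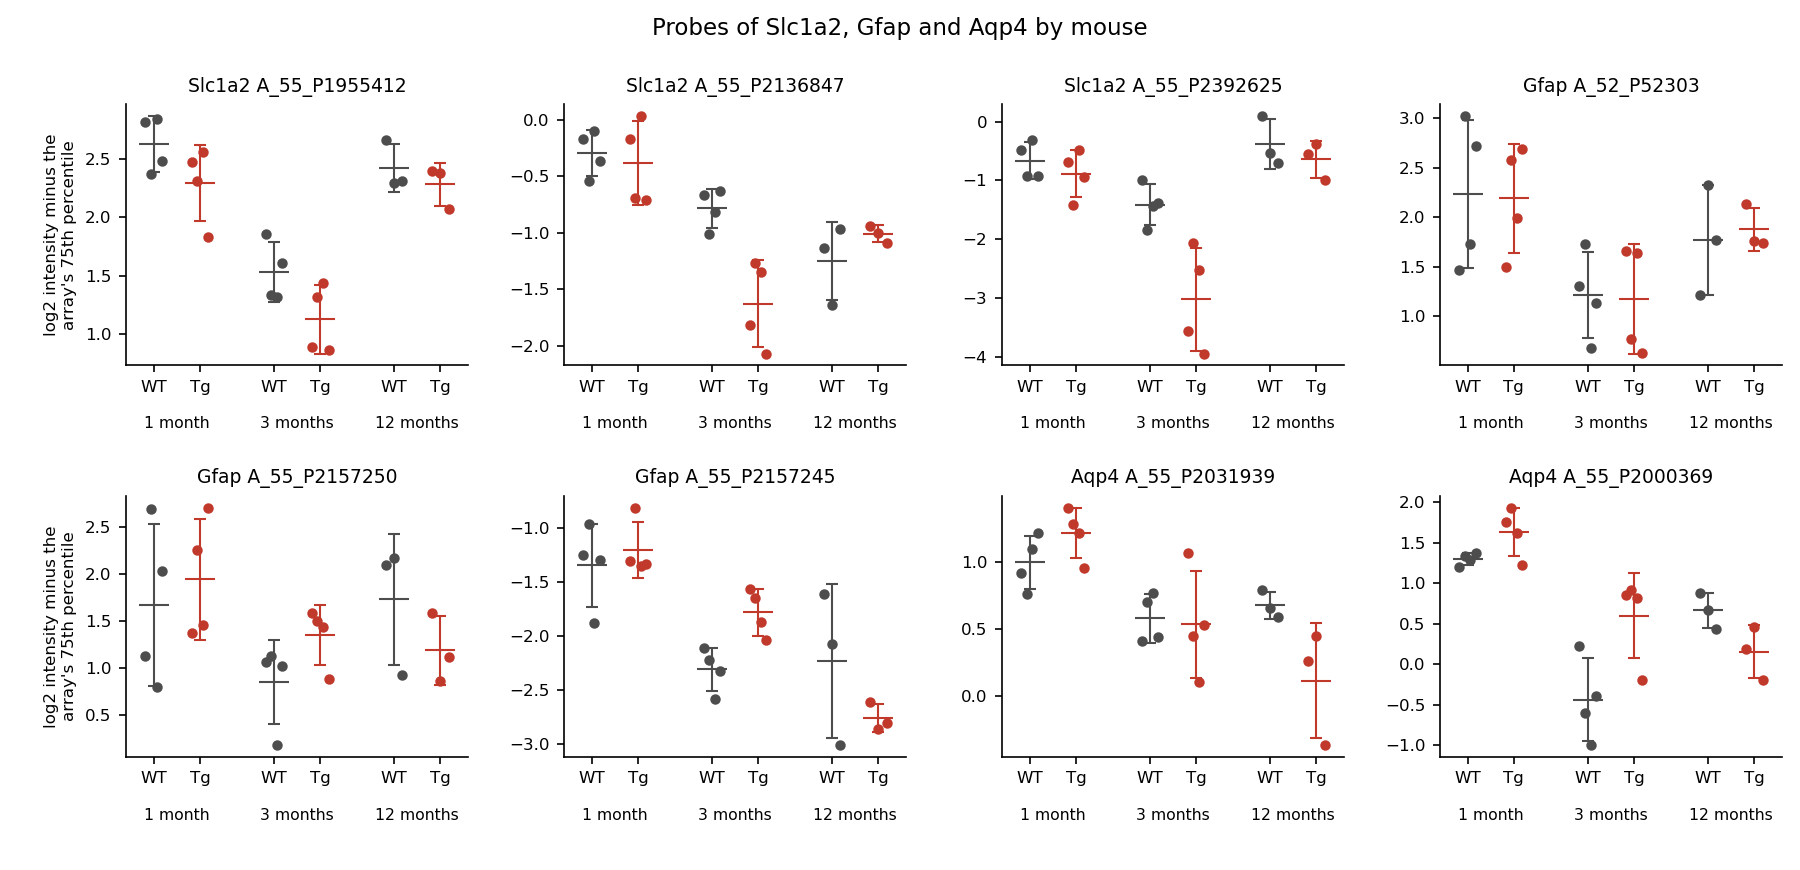
Level of each probe of Slc1a2, Gfap and Aqp4 (log2 intensity minus the array's 75th percentile) in WT (grey) and TgproNGF#3 (Tg, red) mice at 1, 3 and 12 months; points are mice, bars group means and whiskers 1 SD. At 3 months the groups are apart for Slc1a2 A_55_P2136847 and A_55_P2392625, which were lower in TgproNGF#3 mice, and for Gfap A_55_P2157245, which was higher.

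Whether the probes of 1 gene moved differently was compared within arrays, as each further probe minus the brightest probe of its gene, in 15 comparisons chosen after the values were seen. At 3 months the difference between TgproNGF#3 and WT mice in this quantity was -0.44 for A_55_P2136847 and -1.20 for A_55_P2392625, with no overlap between groups and a two-sided exact permutation p of 0.029 each. After adjustment over the 15 comparisons both had an exact permutation p of 0.21. Since 0.029 is the smallest p this design allows, 2 such comparisons could not pass an adjustment over 15, and the adjusted value says nothing on whether the probes moved alike.

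Serpina3n was the member with the largest Log2 FC at 3 months by the brightest probe. It was at -1.68, -1.84, -1.65 and 0.12 in TgproNGF#3 mice and at -0.11, 0.44, 0.08 and 0.32 in WT mice. Of the TgproNGF#3 mice 3 were far below all WT mice, and replicate 4 lay within the WT range. The Log2 FC was -1.44 (SE 0.40), its adjusted p of 0.055 missed the threshold, and the exact permutation p was 0.086. Without TgproNGF#3 replicate 4 the Log2 FC was -1.90 with an adjusted p of 0.00117. That array also had the lowest share of spots above background and the lowest endothelial marker level of its age, and the part of either in the Serpina3n value was not tested. Within the array rows the Log2 FC was -1.92 and -0.96.

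Gfap did not differ by its brightest probe at 3 months, with 1.66, 0.77, 1.64 and 0.63 in TgproNGF#3 mice and 1.31, 1.73, 0.68 and 1.13 in WT mice. Its Log2 FC was -0.04 (SE 0.30, adjusted p = 0.95). The dim probe A_55_P2157245, designed to the same transcript NM_001131020, was at -1.56, -1.65, -1.87 and -2.04 in TgproNGF#3 mice and at -2.11, -2.22, -2.58 and -2.32 in WT mice. Here every TgproNGF#3 mouse was above every WT mouse, but the Log2 FC of 0.53 (SE 0.16) had an adjusted p of 0.0756. That p was below 0.05 with dim spots kept (0.0447), the percentile over all spots (0.0211) and the authors' log2 values (0.0201), and without TgproNGF#3 replicate 4 (0.046). Probe A_55_P2157250, of transcript NM_010277, had a Log2 FC of 0.50 (SE 0.25, adjusted p = 0.221), or 0.28 without WT replicate 3. Vim had a Log2 FC of 0.27 (SE 0.17, adjusted p = 0.347), with overlapping groups, and 0.16 without TgproNGF#3 replicate 1.

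Aqp4, the water channel of astrocyte endfeet, gave unequal values by its 2 probes, which were designed to the same transcript. The brighter A_55_P2031939 had a Log2 FC of -0.04 (SE 0.21) at 3 months. A_55_P2000369 was at 0.85, 0.92, 0.82 and -0.19 in TgproNGF#3 mice and at 0.23, -0.60, -1 and -0.39 in WT mice. Again 3 of the TgproNGF#3 mice were above all WT mice and replicate 4 was within the WT range, with a Log2 FC of 1.04 (SE 0.31, adjusted p = 0.0714). Without that mouse the Log2 FC was 1.31 and the adjusted p 0.0199. The adjusted p of all mice was also below 0.05 with dim spots kept (0.0467), the percentile over all spots (0.0221), the authors' log2 values (0.0331) and 1 fit of all arrays (0.00688). The difference between the probes had an exact permutation p of 0.086 (0.32 after adjustment over the 15 comparisons).

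No other member was called at 3 months. Aldh1l1, a folate enzyme used as a pan-astrocyte marker, was at 1.89, 1.74, 1.51 and 1.70 in TgproNGF#3 mice and at 2.17, 1.80, 2.14 and 2.09 in WT mice. All 4 TgproNGF#3 mice were below the WT mean, WT replicate 2 lay among the TgproNGF#3 mice, and the Log2 FC was -0.34 (SE 0.15, adjusted p = 0.168). Gja1, the other gap junction connexin of astrocytes, had a Log2 FC of -0.36 (SE 0.16, adjusted p = 0.188). Gjb6 had -0.18 (SE 0.20). S100b, a calcium-binding protein, had 0.06 (SE 0.13), and Slc1a3, the second glutamate transporter, had 0.03 (SE 0.14). Over the 10 genes 3 were higher and 7 lower, with a median Log2 FC of -0.11 beside -0.05 over all genes tested.

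**Figure D3:**
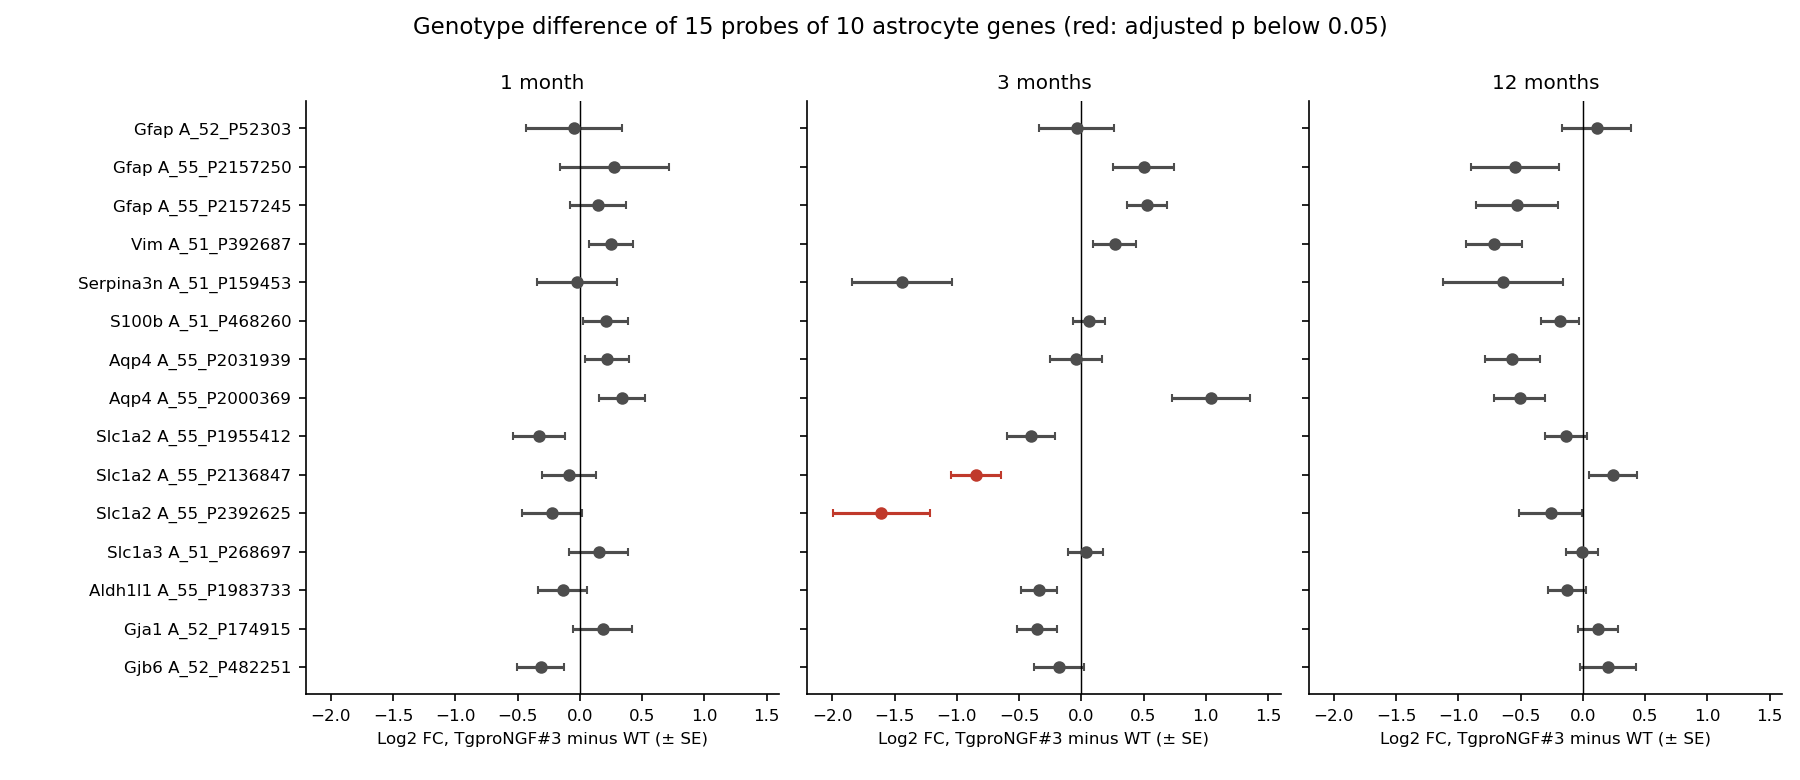
Log2 FC (TgproNGF#3 minus WT, point) and its standard error (whisker) of the 15 probes of the 10 astrocyte genes at 1, 3 and 12 months. The 2 probes in red, both of Slc1a2 at 3 months, had an adjusted p below 0.05, and the probes of Gfap and Aqp4 fell on different sides of 0 at 3 months.

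At 12 months no probe of any gene reached an adjusted p below 0.05 (0%). This count and the unadjusted one turned on single mice: without WT replicate 3 there were 263 probes at an adjusted and 5673 at an unadjusted p below 0.05, in place of 0 and 3084, without TgproNGF#3 replicate 1 there were 7 and 2650, and without WT replicate 1 or 2 there were 0 and 1490 or 1357. Of the 10 astrocyte genes 3 were higher and 7 lower, with a median Log2 FC of -0.13 (-0.054 without TgproNGF#3 replicate 3) beside 0.06 over all genes, and the lowest adjusted p of a member was 0.549. Unadjusted p-values below 0.05 were found for 2 of 10 genes and 3 of 15 probes (9.05% of all probes), none passed the threshold of the methods (1.3%), and groups did not overlap for 2 of 15 probes (14.5%). With 3 against 3 mice an exact permutation test cannot go below 0.1.

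Vim was at 0.50, 0.29 and 0.25 in TgproNGF#3 mice and at 1.14, 1.45 and 0.59 in WT mice. The groups did not overlap, with a Log2 FC of -0.71 (SE 0.23, adjusted p = 0.549) and an exact permutation p of 0.1. Aqp4 was at 0.26, 0.45 and -0.37 in TgproNGF#3 mice and at 0.79, 0.66 and 0.59 in WT mice. These groups were also apart, with a Log2 FC of -0.57 (SE 0.22, adjusted p = 0.549), and the second Aqp4 probe gave -0.51 (SE 0.20). Without TgproNGF#3 replicate 3 these were -0.32 and -0.34. Serpina3n was at -0.79, -1.90 and -1.64 in TgproNGF#3 mice and at 0.11, -0.75 and -1.77 in WT mice, with wide spread in both genotypes and a Log2 FC of -0.64 (SE 0.48), which ran from -1.12 without WT replicate 3 to -0.18 without WT replicate 1. Gfap gave 0.11 (SE 0.28) by its brightest probe and -0.54 (SE 0.35) and -0.53 (SE 0.33) by A_55_P2157250 and A_55_P2157245, which moved to -0.95 and -0.92 without WT replicate 3 and to as little as -0.32 (without WT replicate 2) and -0.22 (without WT replicate 1). The remaining members, S100b, Slc1a2, Slc1a3, Aldh1l1, Gja1 and Gjb6, had Log2 FC between -0.19 and 0.20. In the slide row that held the 3 TgproNGF#3 arrays the only WT mouse was replicate 3, and against that mouse Vim differed by -0.25, Aqp4 by -0.47 and Serpina3n by 0.33, so array row and genotype were largely confounded at this age.

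Vim is also made by meningeal and endothelial cells, and leptomeningeal markers moved with it at 12 months. Of the 9 leptomeningeal genes 8 were lower in TgproNGF#3 mice, 5 of them with an unadjusted p below 0.05 (9.05% of all probes) and none with an adjusted p below 0.05, and their median Log2 FC was -0.93 beside 0.06 over all genes. Their mean level ran from -1.68 to -0.92 in TgproNGF#3 and from -0.54 to 0.03 in WT mice, and every one of them was detected. At 3 months 9 of 9 were higher, with a median of 0.31 and levels from -0.57 to 0.34 in TgproNGF#3 and from -0.58 to -0.13 in WT mice. At 1 month the 2 went apart: 7 of 9 markers were lower, with a median of -0.32 beside 0.07 over all genes, while Vim had a Log2 FC of 0.25. The part of leptomeningeal RNA in the Vim values was not tested. At 3 months 4 of 6 endothelial markers were lower and 2 higher, and 1, Cdh5, had an adjusted p below 0.05 (-2.07, adjusted p = 0.0126), where 8.43% of all probes were called. Cldn5 (0.44) and Tek (0.34) were the higher ones, with no adjusted p below 0.05. The mean level of the endothelial markers ran from -1.69 to -1.12 in TgproNGF#3 mice and from -0.93 to -0.84 in WT mice, and their part in the member values was not tested. Choroid plexus and ependymal markers were lower at the median at each age (-0.41, -0.78 and -0.72), but ranged within 1 group from -1.45 to 2.18 at 3 months.

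**Figure D4:**
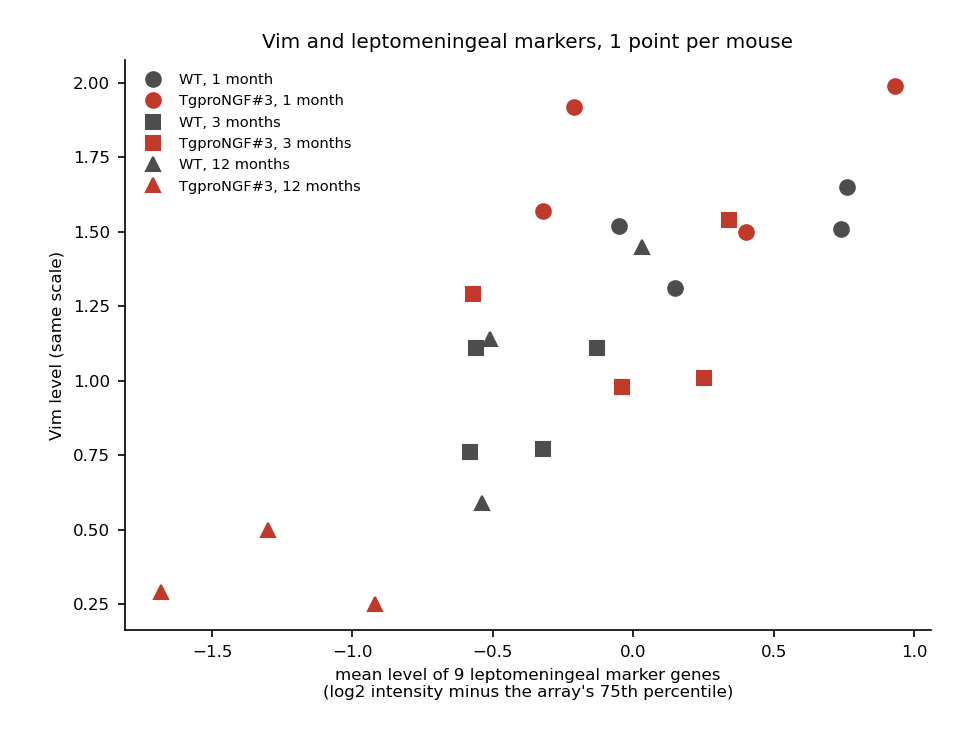
Vim level against the mean level of 9 leptomeningeal marker genes (both as log2 intensity minus the array's 75th percentile), 1 point per mouse, with colour for genotype and marker shape for age. The 3 TgproNGF#3 mice of 12 months (red triangles) have the lowest Vim levels, 0.25 to 0.50, and the lowest marker levels, -1.68 to -0.92.

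The genotype difference was compared between ages in 1 fit of all 22 arrays. Of the 10 genes by their brightest probe, 1 differed at an adjusted p below 0.05: Vim, with a Log2 FC of 0.27 at 3 months and -0.71 at 12 months, a change of -0.98 (SE 0.27, adjusted p = 0.0436). Among the further probes, Aqp4 A_55_P2000369 went from 1.04 to -0.51, a change of -1.55 (SE 0.38, adjusted p = 0.0209), and Slc1a2 A_55_P2136847 from -0.84 to 0.25, a change of 1.09 (SE 0.31, adjusted p = 0.0454). In all, 4.52% of all probes differed between 12 and 3 months. Between 3 and 1 month none of the members did (2.87% of all probes), nor between 12 and 1 month (0%). The 12-month mice were females on another slide, so these differences cannot be told apart from those of sex and slide. The Vim call was lost under median scaling (adjusted p = 0.191) and with normexp background correction (adjusted p = 0.0567), with the replicate number within age as a block (adjusted p = 0.091) and without WT replicate 2 of 12 months (-0.79, adjusted p = 0.15, the highest when a mouse was left out). The Slc1a2 call was lost in 6 of 8 alternative settings: dim spots kept (adjusted p = 0.111), the percentile over all spots (0.0566), median scaling (0.0705), normexp (0.0645), the authors' log2 values (0.0517) and the replicate block (0.0686). Leaving out 1 of the 22 mice ended the Vim call in 11 cases (at 1 month TgproNGF#3 replicate 1 and WT replicate 4, at 3 months replicates 1 and 4 of both genotypes, and at 12 months all TgproNGF#3 mice and WT replicates 1 and 2). It ended the Slc1a2 call in 13 cases (the same and WT replicate 3 of 1 month and of 3 months, highest adjusted p = 0.151) and the Aqp4 call in 2 (at 12 months TgproNGF#3 replicate 3, adjusted p = 0.0664, and WT replicate 1, adjusted p = 0.0655).

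In WT mice the levels of the astrocyte genes over the ages depended on how the arrays were scaled. With the 75th percentile of the spots kept, the median difference of all probes from 1 to 3 months was -0.45 and from 1 to 12 months -0.38, so each gene is given beside this shift. From 1 to 3 months 6 of 10 genes fell (Gfap, Vim, Aqp4, Slc1a2, Slc1a3 and Gjb6) and none rose, where 43.1% of all probes fell and 1.56% rose. These shares turn on the scaling: 14534 probes fell and 525 rose, but 3026 and 8155 with dim spots kept, 1862 and 2524 with the percentile over all spots, and 2243 and 2084 with the authors' log2 values. Slc1a2 went from 2.62 ± 0.24 (SD, n = 4) to 1.53 ± 0.26 (SD, n = 4), a fall of 1.09 with no overlap (SE 0.18, adjusted p = 0.000934), which is -0.64 relative to the median of all probes. Gfap went from 2.24 ± 0.75 to 1.21 ± 0.43, a difference of -1.02 with overlapping groups (SE 0.35, adjusted p = 0.0317), or -0.58 relative to that median. The other 4 lay between -0.11 and 0.03 of it by their brightest probes. The second Aqp4 probe, A_55_P2000369, went from 1.3 to -0.44, a fall of 1.74 with no overlap (SE 0.22, adjusted p = 0.000317), and rose by 1.10 to 0.66 at 12 months (SE 0.24, adjusted p = 0.0128). With the authors' log2 values, in which the median of all probes moved by -0.03, Slc1a2 was the 1 gene that remained called (-0.68, adjusted p = 0.0161). With 1 of the 11 WT mice left out, its call was lost in 0 cases, those of Gfap, Aqp4 and Slc1a3 in 5 each, and those of Vim and Gjb6 in 4 each. Serpina3n, with no called difference (0.42, adjusted p = 0.326), lay farther from the median of all probes than these genes, at 0.87.

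From 3 to 12 months the median of all probes moved by 0.08, and 2 of 10 genes rose, where 7.55% of all probes rose and 2.06% fell. These shares are 2542 and 694 probes, which became 667 and 325 under median scaling and 1268 and 218 without WT replicate 1 of 12 months. Slc1a2 returned to 2.42 ± 0.21 (SD, n = 3), a rise of 0.88 (SE 0.19, adjusted p = 0.0129). Its probe A_55_P2392625 also rose, by 1.03 (adjusted p = 0.0202), whereas A_55_P2136847 went the other way, from -0.78 to -1.25 (-0.47, adjusted p = 0.136), and was lower at 12 months than at 1 month with no overlap (-0.96, adjusted p = 0.00803). S100b rose from 3.16 ± 0.10 to 3.86 ± 0.13, by 0.70 (SE 0.16, adjusted p = 0.0158). In both the groups did not overlap. Both calls were lost under median scaling (adjusted p = 0.118 and 0.206) and without WT replicate 1 of 12 months (adjusted p = 0.0617 and 0.0692), and that of Slc1a2 also when its probes were averaged (0.48, adjusted p = 0.133). From 1 to 12 months S100b rose by 0.47 (adjusted p = 0.0416), which is 0.84 relative to the median of all probes, and Aldh1l1, Gja1 and Gjb6 fell, where 2.27% of all probes rose and 26.4% fell. Here too the scaling decided the direction, with 766 probes higher and 8885 lower, but 10231 and 1061 with dim spots kept, 2362 and 570 with the percentile over all spots, and 1913 and 632 with the authors' values. Without WT replicate 1 of 12 months 1669 were lower. Gja1 went from -0.01 ± 0.47 at 1 month through -0.41 ± 0.20 at 3 months to -1.14 ± 0.15 at 12 months, a fall of 1.12 (SE 0.23, adjusted p = 0.00886), which is -0.75 relative to the median of all probes. From 3 to 12 months its difference was -0.73 (adjusted p = 0.0616), with an adjusted p below 0.05 with dim spots kept (0.0467), the percentile over all spots (0.0216), normexp (0.0497), the authors' log2 values (0.0165) and 1 fit of all arrays (0.0338). It is measured by 10 spots per array, whose SD was at most 0.102, and the second connexin gene, Gjb6, lay at -0.19 relative to that median. With the authors' values S100b (0.88) and Gja1 (-0.70) remained called between 1 and 12 months, whereas Aldh1l1 (adjusted p = 0.445) and Gjb6 (adjusted p = 0.489) did not. Under median scaling S100b had a difference of 0.13 (adjusted p = 0.629). With 1 of the 11 WT mice left out, the S100b call between 1 and 12 months was lost in 8 cases (all but replicates 1 and 3 of 1 month and replicate 3 of 3 months, highest adjusted p = 0.149), those of Aldh1l1 and Gjb6 in 5 each, and that of Gja1 in 0. Serpina3n had no called difference and its largest spread at 12 months (SD 0.94).

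**Figure D5:**
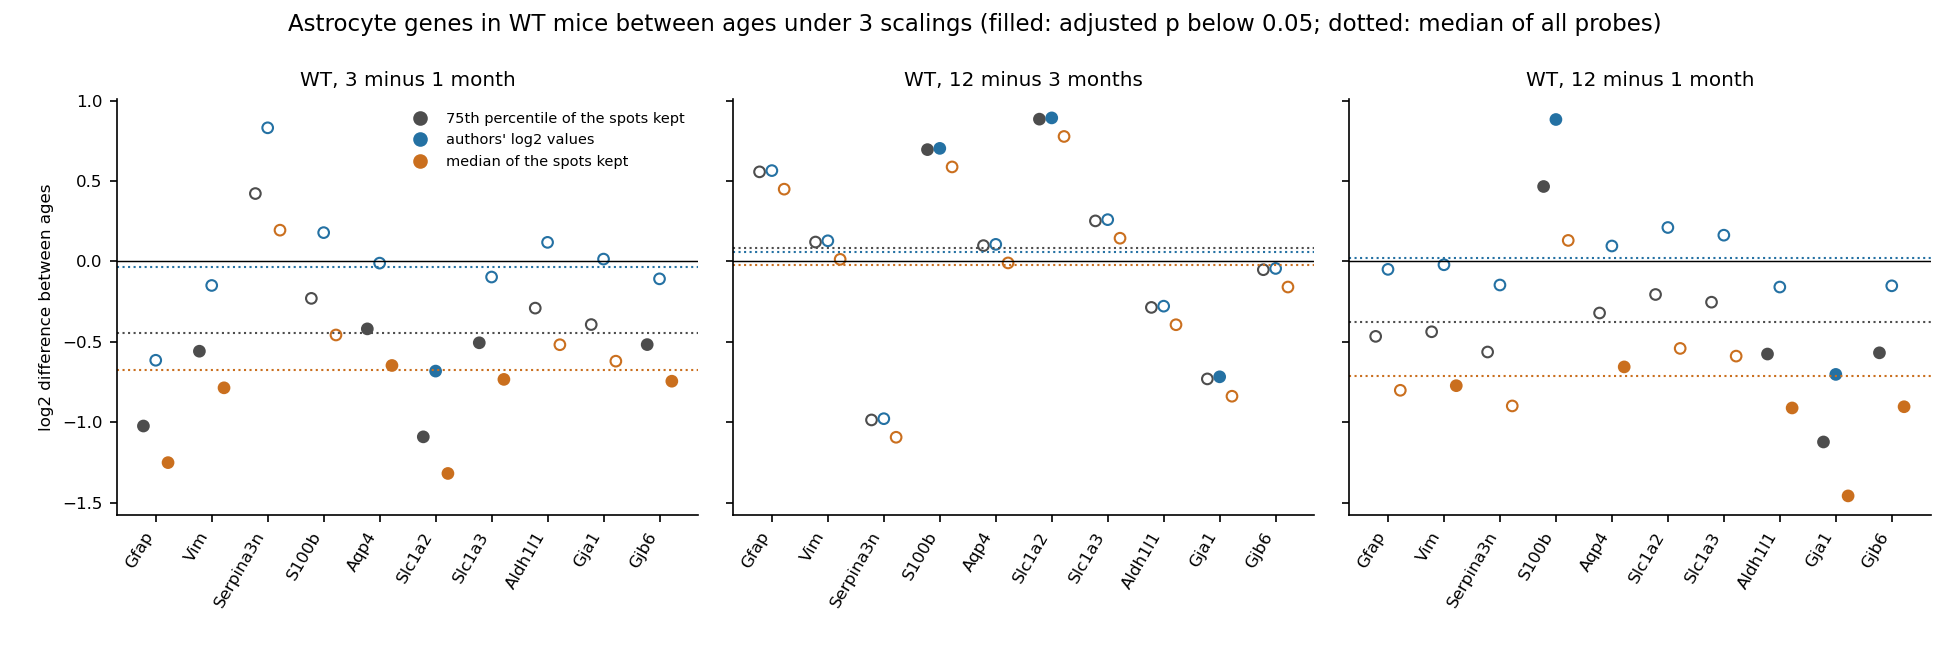
Log2 difference between ages in WT mice for the 10 genes under 3 scalings (75th percentile of the spots kept, the authors' log2 values, and the median of the spots kept); filled points have an adjusted p below 0.05 and dotted lines mark the median of all probes under the same scaling. Slc1a2 from 1 to 3 months and Gja1 from 1 to 12 months are filled under all 3 scalings.

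Other astrocyte genes were looked up from lists by role. Of 24 further identity genes, none had an adjusted p below 0.05 at 1 month or 12 months, and at 3 months 7 were higher and 17 lower, 1 of them past the adjusted threshold, where 8.43% of all probes were called. That gene was Slc7a10, an amino acid transporter of astrocytes, with levels from -0.45 to 0.24 in TgproNGF#3 and from 0.66 to 1.02 in WT mice and a Log2 FC of -0.76 (SE 0.18, adjusted p = 0.0356). The median Log2 FC of the identity list was 0.02, -0.19 and -0.05 at 1, 3 and 12 months, beside 0.07, -0.05 and 0.06 over all genes. At 12 months Nes, an intermediate filament gene of neural progenitors, had a Log2 FC of -0.46 (adjusted p = 0.549).

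Among transcripts of reactive astrocytes, the shared list (9 of 10 genes tested at each age) had 1 called gene at 3 months, when 4 were higher and 5 lower and 8.43% of all probes were called. At 1 month and at 12 months 7 of its 9 genes were lower, none with an adjusted p below 0.05. Its median Log2 FC was -0.45, -0.18 and -0.24 at 1, 3 and 12 months, beside 0.07, -0.05 and 0.06 over all genes. Hspb1, a small heat shock protein, ran from 0.74 to 1.46 in TgproNGF#3 mice and from 1.61 to 2.50 in WT mice at 3 months, a Log2 FC of -0.94 (SE 0.24, adjusted p = 0.0416). At 1 month it had a Log2 FC of -0.61 (adjusted p = 1) with groups of 1.06 to 1.45 and 1.55 to 2.41. Of the neurotoxic (A1) list 10 of 12 genes were tested. At 3 months 7 were higher (4 at an unadjusted p below 0.05) and 3 lower (2 at that p), where 27.2% of all probes had such a p. The median was 0.26 beside -0.05 over all genes. Amigo2, a cell adhesion protein, was the 1 called of 10, beside the same 8.43%, and was lower, from -5.27 to -3.25 in TgproNGF#3 mice and from -2.68 to -2.26 in WT mice (Log2 FC -1.80, SE 0.36, adjusted p = 0.0173). Of the ischaemic (A2) list 9 of 12 genes were tested at 3 months, 4 higher and 5 lower, and 1 was called, again beside 8.43%. That gene, S100a10, an annexin-binding protein, was higher, from 0.05 to 0.79 in TgproNGF#3 mice and from -0.56 to -0.02 in WT mice (Log2 FC 0.76, SE 0.19, adjusted p = 0.0427). The calls of Slc7a10, Hspb1 and S100a10 were each lost in 6 of 8 cases when 1 mouse was left out, and that of Amigo2 in 2 of 8 (without TgproNGF#3 replicate 1 or WT replicate 4), with highest adjusted p-values of 0.0904, 0.126, 0.136 and 0.0539. All 4 calls were also lost with the replicate number as a block (adjusted p = 0.0784, 0.137, 0.101 and 0.0541). With the array row as a block those of Slc7a10 (0.0584) and Hspb1 (0.0666) were lost, under median scaling those of Slc7a10 (0.0555) and S100a10 (0.0542), under quantile normalization those of Hspb1 (0.0560) and S100a10 (0.0533), and with dim spots kept that of Hspb1 (0.0843).

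At 12 months the A1 list was lower for 8 of 10 genes, 4 with an unadjusted p below 0.05 (9.05% of all probes) and none with an adjusted p below 0.05, and its median Log2 FC was -0.44 beside 0.06 over all genes. H2-T23, a class Ib histocompatibility gene, had a Log2 FC of -1.29, Gbp2, an interferon-induced GTPase, -0.60, and Serping1, the complement C1 inhibitor, -0.84 (adjusted p = 0.549 each). H2-T23 was at -1.78 with an adjusted p of 0.0322 without WT replicate 3, and at -0.32 (adjusted p = 1) with the array row as a block, which took Serping1 to -0.33. In the A2 list, of which 7 genes were tested, Sphk1, a sphingosine kinase, had a Log2 FC of -1.04 and Cd109, a membrane glycoprotein, -1.37 (adjusted p = 0.549 each). With the array row as a block Cd109 was at -2.30 (adjusted p = 1), and without WT replicate 3 at -0.90. At 1 month Cd109 had 0.52 (adjusted p = 1). These lists lay in the direction of the leptomeningeal markers at 12 months, and the part of those cells was not tested.

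The 5 genes whose centred levels were nearest to those of Gfap over the 22 arrays, among 10207 genes with enough spread, were Vat1, Maz, Lrrc19, Homer3 and Pacs1, with root mean square differences of 0.338 to 0.354 log2 units beside an SD of Gfap of 0.656. No other member was among them, and the members lay between 0.627 (Slc1a3) and 1.07 (Serpina3n). The arrays share slide and scaling, so this nearness is a description.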

How the data were processed

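RNA with an integrity number below 8 had been discarded, per the labels. The authors extracted spot intensity with Agilent Feature Extraction 10.7.3.1 (deposited after background subtraction and removal of spatial trends, with no scaling between arrays) and also deposited log2 values of 28929 probes, whose arrays share their 75th percentile and differ from the log2 spot intensity by 1 constant per array. 0 columns were left without a sample.

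Spots were left out if they were controls, not well above background, or marked as outliers. The 75th percentile of the spots kept was subtracted from log2 intensity, and spots of a probe were averaged. Within an age, genotypes were compared by limma (version 3.58.1; R 4.3.3) for probes with at least 2 values per group, 40536, 33593 and 34064 probes at 1, 3 and 12 months. WT ages were fitted on 33683 probes and differences between ages on 32420. Exact permutation tests were two-sided. Numbers of arrays, 3 or 4 per group, limit the precision. The labels give no litters, so the mice of a group were treated as independent. P-values set a difference against the spread between these mice.

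Named were all 10 members with every probe, the 5 genes nearest to Gfap, and from 4 lists, per age, genes past adjusted p below 0.05 (at most 5 per list), otherwise at most 3 with the smallest unadjusted p below 0.05. The members and lists were chosen with earlier results of these data known. Probes were named through RefSeq (27971 probes). Ugt1a1 had no named probe. A check of the targeted gene is not reported here.

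Equal replicate numbers lay in the same array row at 1 and 3 months. They were taken to pair the mice at 1 month, where deviations from group means correlated by 0.511, 0.272, 0.191 and 0.208, and not at 3 or 12 months, where they did not. The 1-month values given above are nevertheless from the fit without this pairing. With the replicate number as a block 0 members were called at 1 month, as without it. The SE of Gfap was then 0.19 in place of 0.39 and that of Vim 0.19 in place of 0.18. In that fit 2239 probes had an unadjusted p below 0.05, in place of 1405. Alternatives were dim or outlier spots kept, the percentile over all spots, median or quantile scaling, normexp (offset 50, on median signals, which the files hold), the authors' log2 values, the mean of a gene's probes, 1 fit of all arrays, replicate or array row blocks, and each mouse left out. The procedure was tested on simulated data.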

Additional observations from a re-analysis of the deposited data

Results flagged for a closer look

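In 3 of 40 groups of 4 mice, 1 mouse lay far from the others, by Dixon's criterion, where chance gives about 1 in 20. TgproNGF#3 replicate 4 of 1 month had the lowest level of S100b (3.28, with the others from 3.68 to 3.76) and of Slc1a3 (2.66, with the others from 3.37 to 3.39). Over 14491 genes the median level of that array was -0.50, beside -0.22 to -0.14 in the other 3 mice of its group, and 69.76% of its spots were well above background, the lowest share of its age; their part in both values was not tested. TgproNGF#3 replicate 4 of 3 months had a Serpina3n level of 0.12, with the others from -1.84 to -1.65.

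The genotype effect differed between 12 and 3 months, tested in 1 fit of all arrays, for Vim (-0.98), Aqp4 probe A_55_P2000369 (-1.55) and Slc1a2 probe A_55_P2136847 (1.09). The Slc1a2 call was lost in 6 of 8 alternative settings and the Vim call in 3 of 9, and the Aqp4 call in none of those run. In these, effects of age cannot be told apart from those of sex or of slide.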

How the results depend on the processing

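The counts of members at an adjusted p below 0.05 stayed at 0 at 1 month and at 12 months under every alternative. At 3 months the count was 1 under median scaling, normexp and 1 fit of all arrays (Serpina3n in each) and when each gene's probes were averaged (Slc1a2), and 0 to 1 with a mouse left out (1 without TgproNGF#3 replicate 4). Members at an unadjusted p below 0.05 numbered 2 at 1 month with dim spots kept, the percentile over all spots or the authors' values, in place of 0. At 3 months they numbered 1 with dim spots kept, the percentile over all spots, median scaling, the authors' values or either block, 4 with the mean of all probes, and 1 to 3 with a mouse left out, in place of 2. At 12 months they numbered 1 with dim spots kept, the percentile over all spots or median scaling, 0 with the array row block, and 1 to 2 with a mouse left out. The median Log2 FC of the members was 0.024 at 3 months with dim spots kept and 0.019 with the percentile over all spots, -0.24 to -0.041 with a mouse left out, and 0.017 at 12 months under median scaling. Mice of equal replicate number did not deviate together at 3 and 12 months (correlations of -0.356 to 0.05), although at 3 months they shared array rows, so the numbers were not taken to pair them. With the replicate block the Slc1a2 probes had adjusted p = 0.118 and 0.104 at 3 months, and the 2831 probes called there became 781, and 1920 with the array row block. In WT mice from 1 to 3 months 1 member was called with dim spots kept, the percentile over all spots or the authors' values, 3 after quantile normalization, and 1 to 6 with a mouse left out. From 1 to 12 months 2 were called under the same first 3 settings and 1 to 4 with a mouse left out, and from 3 to 12 months 0 under median scaling, 3 under 5 settings (Gja1 added) and 1 to 3 with a mouse left out. The WT difference of Aqp4 from 1 to 3 months turned to 0.032 with dim spots kept and to 0.038 with the percentile over all spots. For the difference of genotype effects between 12 and 3 months the count was 0 under median scaling, normexp and the replicate block within age, 2 with the mean of all probes, and 0 to 1 with a mouse left out, as it was between 12 and 1 month. Except for the WT difference of Aqp4 from 1 to 3 months, which had been called (-0.42, adjusted p = 0.0391), values that turned sign had not passed the test. Under median scaling Gfap (0.0076) and Serpina3n (0.034) turned at 1 month, Gfap (0.0040) at 3 months, and Aldh1l1 (0.023), Slc1a2 (0.012) and Slc1a3 (0.14) at 12 months, and under quantile normalization Serpina3n (0.014) at 1 month. At 3 months Gfap and Aqp4 turned to 0.097 and 0.092 with dim spots kept, 0.093 and 0.087 with the percentile over all spots, 0.046 and 0.041 with the authors' values, and 0.33 and 0.50 with the mean of all probes, which gave Gfap 0.13 at 1 month and -0.32 at 12 months. With the array row block at 12 months A_55_P2157250 and A_55_P2157245 of Gfap turned to 0.26 and 0.25, Gja1 to -0.019, Gjb6 to -0.0029, Serpina3n to 0.33, and A_55_P2136847 and A_55_P2392625 of Slc1a2 to -0.032 and 0.067. With a mouse left out, Gfap ran from -0.30 to 0.22 at 1 month, -0.21 to 0.14 at 3 months and -0.17 to 0.39 at 12 months, and its probes A_55_P2157245 and A_55_P2157250 from -0.032 to 0.27 and -0.0095 to 0.62 at 1 month. Serpina3n ran from -0.27 to 0.25 and A_55_P2136847 from -0.22 to 0.023 at 1 month, Aqp4 from -0.22 to 0.10, S100b from -0.0040 to 0.10 and Slc1a3 from -0.063 to 0.086 at 3 months, and Gjb6 from -0.028 to 0.38 and Slc1a3 from -0.065 to 0.030 at 12 months. Of the other comparisons of single probes with an alternative, 1138 kept their direction and side of the threshold, 153 kept the direction only and lost the call, and 15 gained one; the causes were not tested.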

Other observations

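At 12 months the 9 neuronal markers all had a positive Log2 FC, with a median of 0.31 beside 0.062 over all 15661 genes tested. Of these, 3 had an unadjusted p below 0.05 (9.05% of all probes) and none an adjusted p below 0.05. Neuronal markers had a median of 0.057 at 1 month and 0.15 at 3 months. For the 7 microglial markers the median Log2 FC was 0.27 at 1 month (0.072 over all genes), 0.071 at 3 months (-0.055 over all genes) and -0.036 at 12 months. The median of the 7 oligodendrocyte markers was 0.15, 0.28 and -0.12 at the same ages, and at 3 months 3 of them were higher and 1 lower at an unadjusted p below 0.05 (27.2% of all probes). In limma, none of these 3 lists had a gene at an adjusted p below 0.05 at any age. These lists were not recomputed under other scalings.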
